A study of Homo sapiens with 9 samples.

Results

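The ATP-binding cassette (ABC) family was taken as every protein-coding gene in the deposited count table whose symbol runs from ABCA to ABCG and then a digit. That rule gave 45 genes of 58735 in the table, of which 19951 are protein-coding. Their transcripts were sequenced after poly-A selection in OVCAR3, an established human ovarian carcinoma cell line labelled wild type, kept in culture for 72 h. All libraries carried a short hairpin RNA (shRNA): a scramble control hairpin, or 1 of 2 hairpins against GPX3, numbered 76 and 78 by the study and written sh76 and sh78 here. Each group had 3 libraries numbered 1 to 3, and GPX3 encodes a secreted glutathione peroxidase. The labels do not say whether the numbered libraries came from separate transductions or cultures, so the p-values measure the spread between these libraries, which may be partly technical. The study addressed the role of GPX3 in these cells, and the comparisons below ask how ABC transcripts differed between the 3 groups.

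Most ABC proteins use ATP hydrolysis to move a substrate across a membrane. Several members of the B, C and G subfamilies export drugs and glutathione, glucuronide or sulfate conjugates, and are known in ovarian cancer for their part in drug resistance. The A subfamily and some G members move cholesterol and phospholipids, and the nuclear receptors LXR-alpha and LXR-beta switch on ABCA1 and ABCG1 when oxysterols accumulate. The D subfamily carries fatty acyl-CoA into peroxisomes or cobalamin out of lysosomes, and a set of B members sits in mitochondria. The E and F proteins keep the ATPase domains but have no membrane domain, and the best known of them act on ribosomes. The 45 genes were divided by these roles into 12 drug and conjugate efflux genes, 18 lipid, sterol and bile salt genes, 3 peroxisomal, 2 lysosomal, 4 mitochondrial, 2 sulfonylurea receptors and 4 soluble proteins.

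Libraries held 14652965 to 21327562 counts, and the 45 genes together took 0.0961% to 0.104% of them. GPX3, the check of the labels, had CPM (counts scaled by TMM library sizes, as are all CPM here) of 173, 109 and 117 with scramble, 56.8, 55.2 and 55.5 with sh76 and 35.3, 28.4 and 28.3 with sh78. Its log2 fold change was −1.25 with sh76 and −2.12 with sh78 (adjusted p 0.00264 and 0.000125 by edgeR), and no hairpin library reached the lowest scramble library. Of 8 epithelial and ovarian markers (EPCAM, KRT8, KRT18, KRT19, CDH1, PAX8, WT1 and MUC16) none was at 0 in any group, which goes with the label. Their summed level was 12000 to 12800 CPM with scramble, 11200 to 11900 with sh76 and 9520 to 10100 with sh78, so that the sh78 libraries were lower than all others. Keratins dominate this sum, with KRT8, KRT18 and KRT19 at means of 5560, 2180 and 1590 CPM with scramble. With sh78, 4 of the 8 fell (EPCAM, KRT8, KRT18 and KRT19), and with sh76 KRT19 rose and PAX8 fell. CDH1, WT1, PAX8 and MUC16 had log2 fold changes of −0.23, −0.42, 0.09 and 0.06 with sh78 (adjusted p 0.0772, 0.46, 0.504 and 0.918 by edgeR). The 3 leukocyte markers (PTPRC, CD3E and CD68) summed to 0.344 to 1.4 CPM, the 3 endothelial markers (PECAM1, VWF and CDH5) to 6.23 to 10.8, and the 5 fibroblast markers (COL1A1, COL1A2, DCN, LUM and PDGFRB) to 27.5 to 39.2 with scramble, 30.8 to 52.6 with sh76 and 34.6 to 47.1 with sh78, where DCN and LUM were at 0 in all scramble libraries and LUM in all sh78 libraries. The part of these marker differences in the ABC results was not tested. In bulk RNA, fewer cells of a kind and less RNA per cell cannot be told apart.

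Levels between genes are compared as FPKM, deposited values that divide counts by gene length and depth. Members that act on ribosomes, and the drug exporter ABCC1, had the highest levels in OVCAR3. The 4 highest members over the 9 libraries were ABCF1 at a mean of 34.2 FPKM (31.4 to 37.6 across libraries), ABCE1 at 16.6 (14.7 to 18.5), ABCC1 at 15.7 (12.3 to 18.6) and ABCF3 at 12.9 (11.4 to 14.6). ABCE1 and ABCC1 overlapped in their ranges, as did ABCC1 and ABCF3, while ABCF1 stayed above ABCE1 in every library. Genes on the opposite strand share 11.9% of the exon bases of ABCE1, and the libraries carry no strand to tell such reads apart. ABCF1 is a translation initiation factor, ABCE1 separates ribosomal subunits after termination, and ABCC1 is the multidrug resistance protein that exports glutathione conjugates. A mean of at least 10 FPKM was reached by these 4 members and 1 to 10 FPKM by 18. A further 7 lay under 1 FPKM but had enough counts to be tested, 16 were not tested because of low counts, and ABCA9 and ABCC12 had 0 counts in every library. Of the 45 members, 32 had at least 1 count in all 9 libraries.

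**Figure D1:**
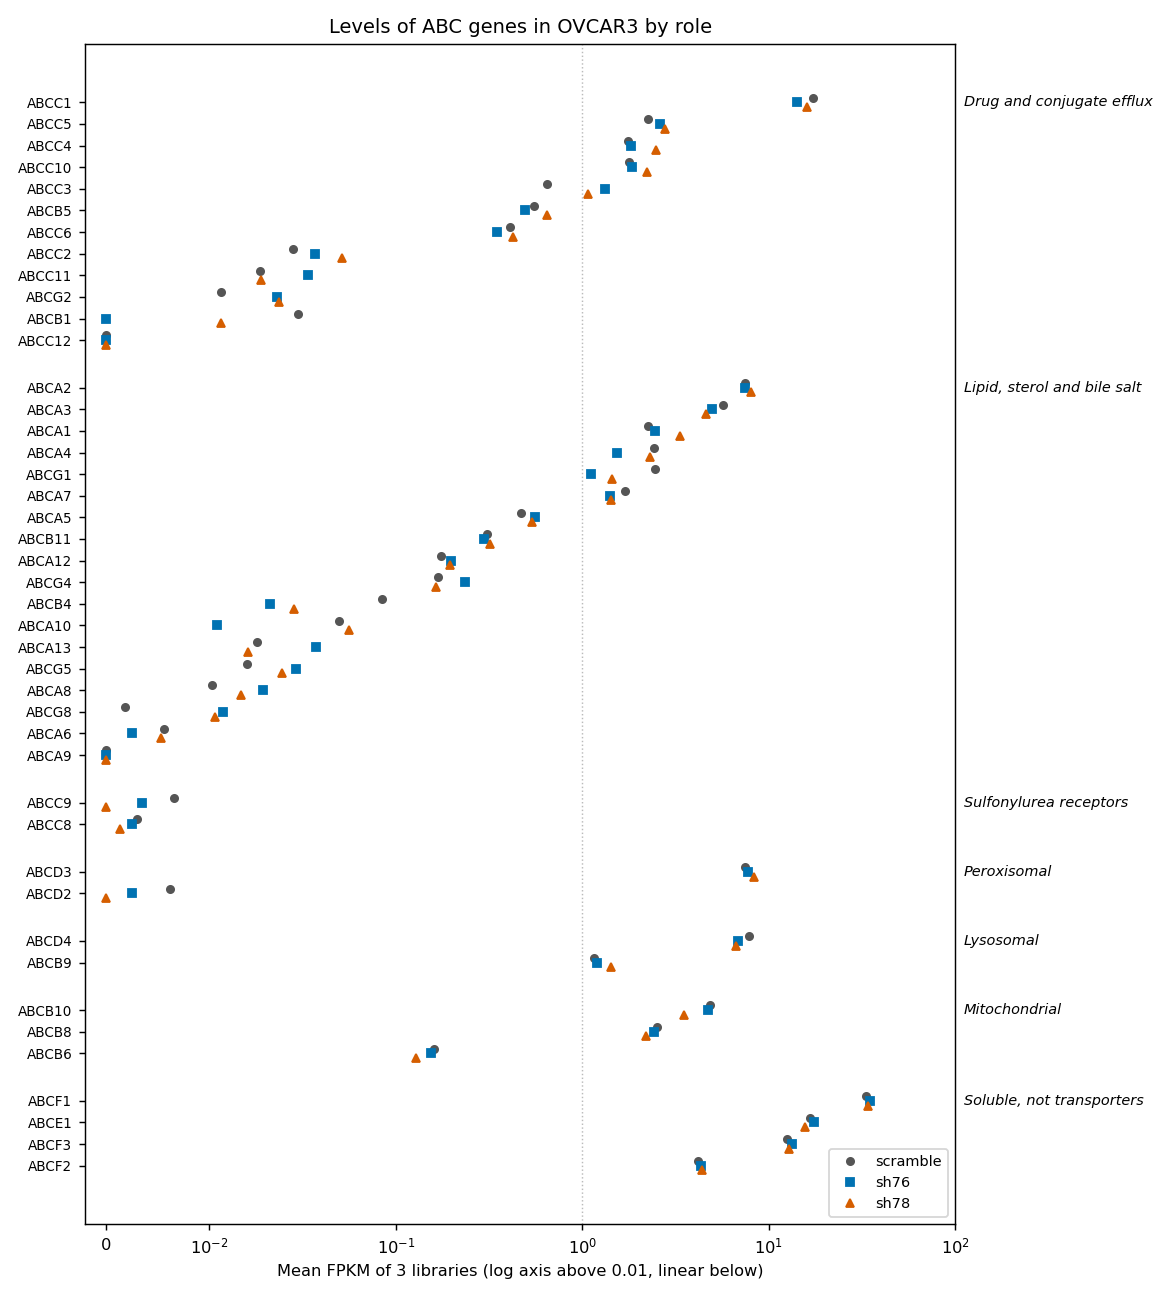
Mean FPKM of the ABC genes reported here in the 3 groups (circles scramble, squares sh76, triangles sh78; mean of 3 libraries; log axis above 0.01 and linear below), ordered by level within each role. ABCF1 is highest at 34.2 FPKM over all libraries, and ABCC12 and ABCA9 sit at 0.

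In the fit that did not pair libraries by their number, few members were called. Of the 29 tested, 3 were called with sh76 at an edgeR adjusted p under 0.05 over 17023 genes: 1 rose (ABCC3) and 2 fell (ABCA4 and ABCG1). That is 10.3% of the tested members, beside 3.58% of all tested genes called (1.43% higher and 2.16% lower). With sh78, 3 were called as well: ABCC4 and ABCA1 rose and ABCG1 fell, which is again 10.3% beside 4.41% of all genes (1.85% higher and 2.56% lower). Between the hairpins, 1 member differed, ABCA4, higher with sh78; that is 3.45% of members beside 3.7% of all genes (1.97% higher and 1.72% lower with sh78), so the share was at the background. ABCG1 was the 1 member called with both hairpins and with 1 sign, beside 1.32% of all genes. Both hairpin comparisons share the 3 scramble libraries, so this is a description and not separate support. The sh78 libraries are also those with the lowest epithelial marker sums (9520 to 10100 CPM), which keratins dominate. The part of these sums in the sh78 calls was not tested.

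When libraries of the same number were treated as a block, 7 of the 29 tested members were called with sh76, 12 with sh78 and 7 between the hairpins. With both hairpins and 1 sign, 5 were called, and the share of all genes for this count was not computed. The block called 20.4%, 19.9% and 18.3% of all genes in the 3 comparisons, so that more calls came among all genes too. The 12 of 29 with sh78 lay above the share of all genes, and the 7 of 29 were nearer to it. The excess with sh78 was not tested. At an unadjusted p under 0.05 by edgeR without the block there were 6, 10 and 8 of the 29 members. Of all 17023 genes, 2959, 2983 and 2768 were under that limit. The median log2 fold change of the 29 members was 0.01 with sh76, 0.06 with sh78 and 0.02 for sh78 against sh76, beside 0.01, 0.01 and 0.00 over all tested genes. The median size of the change, without its sign, was 0.10, 0.21 and 0.16 for the members and 0.15, 0.15 and 0.14 for all genes.

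**Figure D2:**
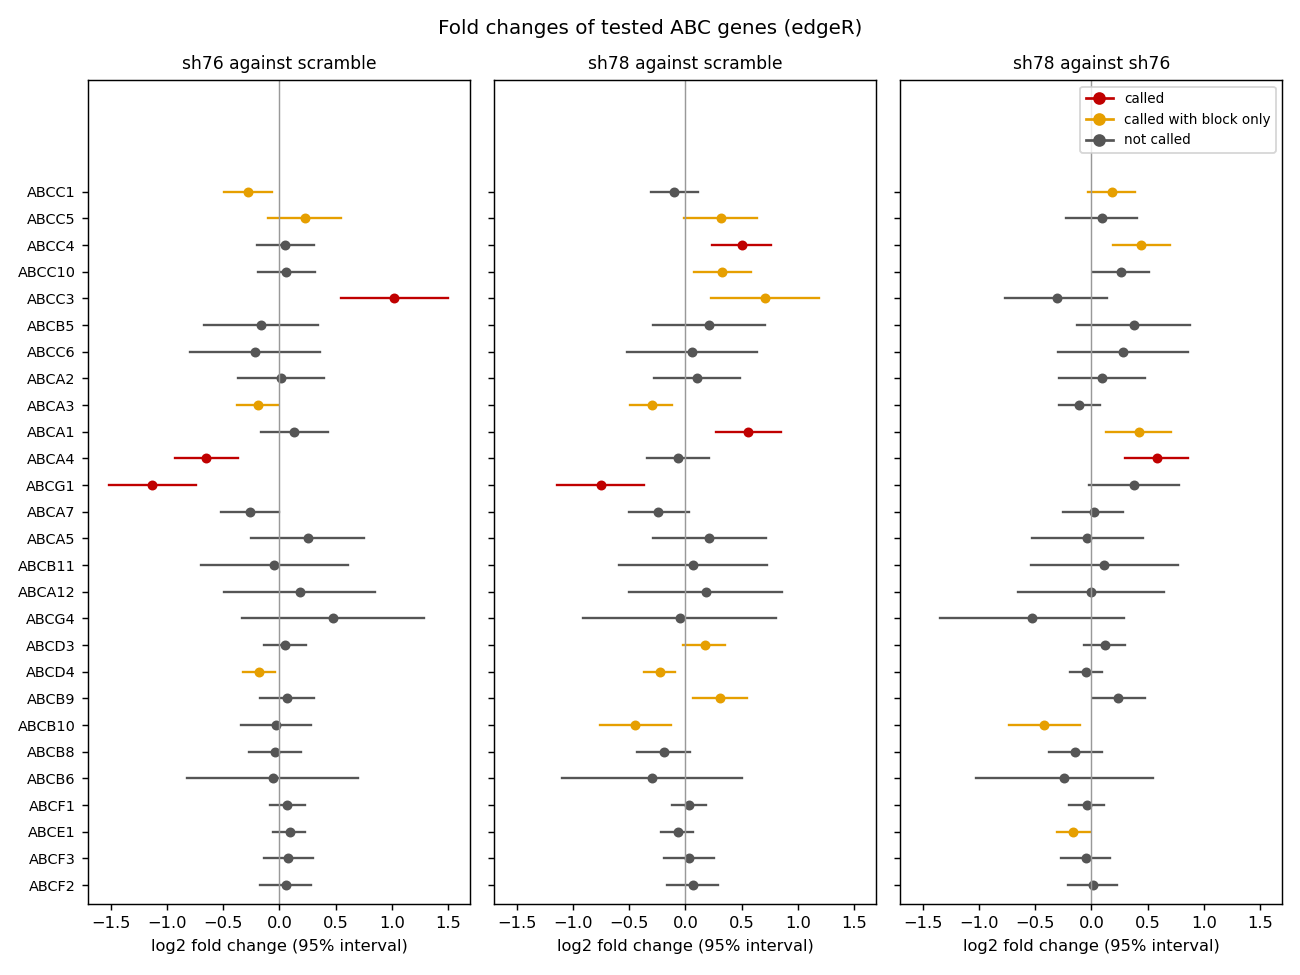
Log2 fold change of the tested ABC genes reported here (points) with its 95% interval (lines, from the fit without the block) in the 3 comparisons; red, called without the block; orange, called only with it; grey, called in neither. ABCG1 lies left of 0 in both hairpin comparisons, at −1.13 and −0.75, and the intervals of most other members include 0.

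Among the lipid genes, ABCG1 fell with both hairpins and ABCA4 with sh76, while ABCA1 rose with sh78. ABCG1 (ENSG00000160179, chromosome 21, 42199689 to 42297244, plus strand, GRCh38) passes cholesterol to high-density lipoprotein. Its counts were 287, 210 and 254 with scramble, 109, 144 and 146 with sh76, and 179, 97 and 162 with sh78. As CPM these were 18.5, 12.3 and 14.6, then 6.72, 6.98 and 6.97, then 9.64, 6.67 and 10.5. All 6 hairpin libraries lay below the lowest scramble library, and the sh76 libraries were nearly alike. ABCG1 fell by 1.13 on the log2 scale with sh76 (SE 0.18, adjusted p 0.00343 by edgeR), to 45.7% of scramble, and this call held in all 18 alternative fits. With sh78 it fell by 0.75 (SE 0.18, adjusted p 0.0292 by edgeR), to 59.4%. The sh78 call was lost in 8 of 18 alternatives, among them the fits without scramble replicate 1, scramble replicate 3, sh78 replicate 1 and sh78 replicate 2, with log2 fold changes from −0.88 to −0.59 and adjusted p up to 0.111 over the 9 fits that left out a library. The difference between the hairpins was 0.38 (95% interval −0.02 to 0.78, adjusted p 0.34 by edgeR) and was not called.

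ABCA1 (ENSG00000165029, chromosome 9, 104781002 to 104928237, minus strand) loads cholesterol and phospholipid onto lipid-poor apolipoprotein A-I, the step before ABCG1. It had 24.6, 25.3 and 27.6 CPM with scramble, 29, 24.9 and 31.1 with sh76, and 31.9, 35.0 and 47.2 with sh78. All sh78 libraries were above all others, with replicate 3 far above the rest, while scramble and sh76 overlapped. ABCA1 rose with sh78 by 0.56 on the log2 scale (SE 0.14, adjusted p 0.0335 by edgeR), to 147% of scramble. With sh76 it differed by 0.13 (95% interval −0.16 to 0.43, adjusted p 0.674 by edgeR). The sh78 call was lost in 7 of 18 alternatives, including the fits without scramble replicate 1, 2 or 3 and without sh78 replicate 2 or 3, where the 9 fits that left out a library gave 0.37 to 0.67 and adjusted p up to 0.127. For sh78 against sh76 the log2 fold change was 0.42 (adjusted p 0.11 by edgeR). It was called with the block and without the low-count filter (adjusted p 0.00012 and 0.00414 by edgeR).

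ABCA1 and ABCC4 are the members called higher with sh78 without the block, while 8 were called higher with it. Both had an entry in the RefSeq promoter table (GRCh38.p14), whose windows run from 250 bases before to 50 bases after the RefSeq transcript start. The 250 bases before the start of ABCA1, chr9:104928156-104928405 on the minus strand, are given 5′ to 3′, with capitals on a CACGTG E-box, 147 bases before the start, and on an LXR-type repeat pair, 69 bases before the start.
ABCA1: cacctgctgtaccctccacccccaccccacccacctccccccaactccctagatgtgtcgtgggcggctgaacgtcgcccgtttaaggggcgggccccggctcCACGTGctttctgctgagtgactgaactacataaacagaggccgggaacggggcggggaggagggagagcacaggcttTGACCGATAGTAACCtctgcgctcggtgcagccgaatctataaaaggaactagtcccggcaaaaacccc
The repeat pair was searched on both strands as GGTNA, 5 bases, then GGTCA, and was found here on the strand opposite to the gene. It occurs in 84 of 35116 promoter windows (0.239%) and in 1 of the 35 members with an entry, which is ABCA1. Its letters and spacing were set by hand for this search, so the rarity of the match is no test of ABCA1. CACGTG, searched on both strands, occurs in 7.26% of windows and in 8 of the 35 members. A match describes letters and is no measured binding site, and ABCG1, which fell, is among the 10 members without an entry.

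ABCA4 (ENSG00000198691, chromosome 1, 93992835 to 94121132, minus strand) is the retinoid-lipid flippase of photoreceptors, expressed here at 1.4 to 2.78 FPKM. Its CPM were 17.6, 23.9 and 20.7 with scramble, 12, 13.8 and 13.8 with sh76, and 17.9, 20.3 and 21.4 with sh78. All sh76 libraries were below all 6 others, and scramble and sh78 overlapped. ABCA4 fell by 0.65 on the log2 scale with sh76 (SE 0.13, adjusted p 0.0129 by edgeR), to 63.8%, and differed by −0.07 with sh78 (95% interval −0.34 to 0.21, adjusted p 0.853 by edgeR). The sh76 call was lost without scramble replicate 2, with log2 fold changes from −0.76 to −0.54 and adjusted p up to 0.0664 over the 9 fits that left out a library. Tested directly, sh78 was above sh76 by 0.58 (SE 0.13, adjusted p 0.0236 by edgeR), a call lost without sh76 replicate 1, 2 or 3 and without sh78 replicate 2 or 3 (0.52 to 0.65, adjusted p up to 0.0924).

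**Figure D3:**
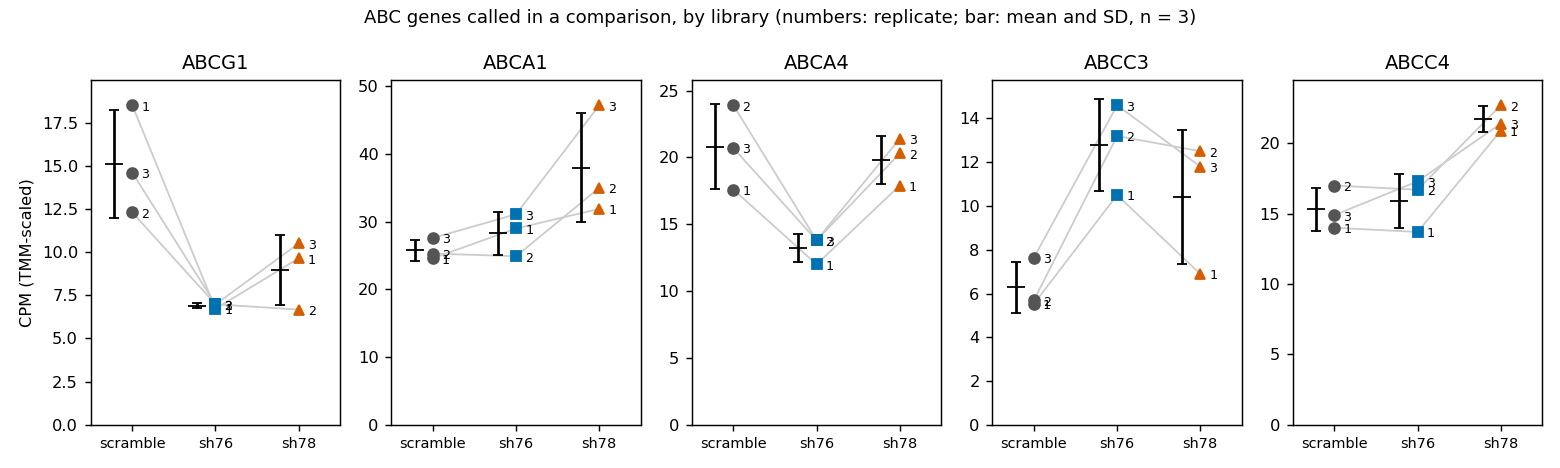
CPM of the 5 ABC genes called in any comparison, by library, with the replicate number beside each point, grey lines joining libraries of 1 number, and black bars for the mean and SD of 3 libraries. ABCG1 in all hairpin libraries (6.67 to 10.5) lies below scramble (12.3 to 18.5), ABCA4 is lower with sh76 than in the other groups, and ABCC4 and ABCA1 are highest with sh78.

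ABCA3, the phospholipid transporter of surfactant lamellar bodies, had 41.0, 46.2 and 46.5 CPM with scramble, 36.5, 40.1 and 40.2 with sh76, and 33.9, 37.9 and 36.8 with sh78. Every hairpin library was below every scramble library. The log2 fold changes were −0.19 and −0.30 (adjusted p 0.25 and 0.0652 by edgeR), called with the block (adjusted p 0.021 and 0.00045 by edgeR). The sh78 value was also called by DESeq2 (−0.30, adjusted p 0.0441) and without scramble replicate 1 (−0.36, adjusted p 0.0376 by edgeR). ABCA2, a lysosomal and neural lipid transporter and the highest of the class at 7.66 FPKM, and ABCA7, a phospholipid exporter at 1.51 FPKM, were not called. The other tested lipid genes were ABCA5, ABCA12, ABCB11 (the bile salt export pump) and ABCG4, at 0.189 to 0.522 FPKM, and none of these was called, with or without the block. Over all 10 tested lipid genes the medians were −0.02 with sh76, 0.01 with sh78 and 0.06 for sh78 against sh76.

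The efflux genes were led by ABCC1, and the members called without the block, ABCC3 with sh76 and ABCC4 with sh78, rose. ABCC3 (ENSG00000108846, chromosome 17, 50634777 to 50692252, plus strand) exports glucuronide conjugates and bile salts. Its counts were 86, 97 and 133 with scramble, 170, 273 and 306 with sh76, and 128, 182 and 181 with sh78, which is 5.53, 5.69 and 7.64 CPM, then 10.5, 13.2 and 14.6, then 6.89, 12.5 and 11.8. All sh76 libraries were above scramble, while sh78 replicate 1 lay within the scramble range. ABCC3 rose with sh76 by 1.02 on the log2 scale (SE 0.22, adjusted p 0.0208 by edgeR), to 203% of scramble. That call was lost without scramble replicate 1 or 2 and without sh76 replicate 2 or 3, where the 9 fits that left out a library gave 0.92 to 1.19 and adjusted p up to 0.0986. With sh78 the log2 fold change was 0.71 (95% interval 0.23 to 1.19, adjusted p 0.102 by edgeR), called with the block (adjusted p 0.00013 by edgeR) and also without sh78 replicate 1 (0.94, adjusted p 0.0129 by edgeR). DESeq2 called it too (0.72, adjusted p 0.0427), as did edgeR without the low-count filter (adjusted p 0.00149) and on replicates 2 and 3 only (0.86, adjusted p 0.0064). The other alternatives did not call ABCC3 with sh78. For sh78 against sh76 it was not called (−0.31, 95% interval −0.77 to 0.14, adjusted p 0.533 by edgeR).

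ABCC4 (ENSG00000125257, chromosome 13, 95019829 to 95301475, minus strand) exports cyclic nucleotides, prostaglandins and urate. It had 14.0, 17.0 and 14.9 CPM with scramble, 13.7, 16.7 and 17.3 with sh76, and 20.9, 22.7 and 21.4 with sh78. All sh78 libraries were above all 6 others, and sh76 overlapped scramble. ABCC4 rose with sh78 by 0.50 on the log2 scale (SE 0.12, adjusted p 0.03 by edgeR), to 141%, and differed by 0.05 with sh76 (95% interval −0.20 to 0.31, adjusted p 0.875 by edgeR). The call was lost without scramble replicate 1 or 3 and without sh78 replicate 1, 2 or 3, where the 9 fits that left out a library gave 0.44 to 0.58 and adjusted p up to 0.106. For sh78 against sh76 the log2 fold change was 0.44 (adjusted p 0.0548 by edgeR), called with the block (adjusted p 0.000354 by edgeR). It was also called by DESeq2 (adjusted p 0.0224) and by edgeR without the low-count filter (adjusted p 0.0206) or without scramble replicate 1 (adjusted p 0.0414).

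The 250 bases before the RefSeq start of ABCC4, chr13:95301452-95301701 on the minus strand, are shown beside those of ABCA1. ABCC4 is the other member called higher with sh78 without the block. Capitals mark a match, on the strand opposite to the gene and 149 bases before the start, to the core of the antioxidant response element, TGACNNNGC, the motif known for the oxidant-sensing factor NRF2.
ABCC4: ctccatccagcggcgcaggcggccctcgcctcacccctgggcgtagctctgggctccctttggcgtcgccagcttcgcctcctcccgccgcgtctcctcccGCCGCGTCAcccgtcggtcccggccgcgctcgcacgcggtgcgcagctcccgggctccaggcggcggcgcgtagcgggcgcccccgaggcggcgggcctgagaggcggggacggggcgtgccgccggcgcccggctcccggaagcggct
That core, searched on both strands, occurs in 13.3% of all promoter windows and in 12 of the 35 members with an entry, so it is a common run of letters. The ABCC4 stretch is 80.4% G and C and that of ABCA1 61.6%. No copy of GGGCGG was found in the ABCC4 window and 3 were found in that of ABCA1, where 45% of all windows hold at least 1.

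ABCC1 had 113, 138 and 141 CPM with scramble, 93.8, 112 and 117 with sh76, and 112, 128 and 125 with sh78. Groups overlapped, but in each of the 3 same-numbered pairs sh76 was below scramble, by log2 differences of −0.27, −0.30 and −0.27. The log2 fold change with sh76 was −0.28 (95% interval −0.49 to −0.07, adjusted p 0.147 by edgeR), called with the block (adjusted p 1.23e-05 by edgeR) and without scramble replicate 1 (−0.38, adjusted p 0.0324 by edgeR). This log2 fold change was also called without the low-count filter and on replicates 2 and 3 only (adjusted p 0.011 and 0.0241 by edgeR). With sh78 it was −0.10 (adjusted p 0.671 by edgeR). For sh78 against sh76 it was 0.18 (adjusted p 0.407 by edgeR), called with the block (adjusted p 0.00363 by edgeR).

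ABCC5, which exports cyclic nucleotides and other organic anions, had 27.7, 30.1 and 19.4 CPM with scramble, 32.4, 32.1 and 25.9 with sh76 and 34.0, 33.9 and 28.1 with sh78. Replicate 3 was the lowest library of each group, and the groups overlapped. The log2 fold changes of 0.23 and 0.32 (adjusted p 0.486 and 0.306 by edgeR) were called only with the block (adjusted p 0.0242 and 0.00176 by edgeR). ABCC10, a broad exporter of lipophilic drugs, had 14.4 ± 1.06, 15.1 ± 1.07 and 18.1 ± 1.76 CPM in the scramble, sh76 and sh78 libraries (SD, n = 3) and was called only with sh78 and the block (log2 fold change 0.33, adjusted p 0.149 by edgeR without the block and 0.0129 with it). ABCB5 and ABCC6 were tested at 0.564 and 0.395 FPKM and were not called in any comparison, with or without the block. ABCC6 has near-identical pseudogene copies, ABCC6P1 and ABCC6P2, with 4 to 14 counts per library, so its reads could be split between them.

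The other classical drug pumps had few counts. ABCB1, the P-glycoprotein, had counts of 0, 5 and 4 with scramble, 0, 0 and 0 with sh76, and 0, 2 and 1 with sh78. ABCG2, the breast cancer resistance protein, had 0, 3 and 0, then 1, 5 and 1, then 3, 1 and 2 in the same order. ABCC2, which exports conjugates into bile, had 4, 1 and 6, then 8, 2 and 6, then 9, 4 and 7, and ABCC11 0 to 5 per library. The groups of ABCG2 and ABCC2 overlapped. A count of 0 allows up to 3 counts, which is 0.143 to 0.206 CPM depending on the library, from counting error only. None of these genes was tested, and at this depth a difference between groups was not detectable.

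Of the summed FPKM of the 12 efflux genes, ABCC1 made up 67.7%, 68.3% and 72.8% with scramble, 60.4%, 61.9% and 64.3% with sh76, and 60.8%, 62.0% and 63.5% with sh78. All hairpin libraries were below all scramble libraries, and the 2 hairpin groups overlapped. The share of ABCC3 was 2.22% to 3.1% with scramble, 5.32% to 6.3% with sh76 and 2.94% to 4.76% with sh78, and that of ABCC4 6.75% to 7.39%, 7.74% to 8.3% and 9.52% to 9.93%. The sum itself was 24.7 ± 2.4, 22.6 ± 2 and 25.7 ± 1.53 FPKM (SD, n = 3), with overlapping groups. These shares restate the single-gene levels and were not tested.

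**Figure D4:**
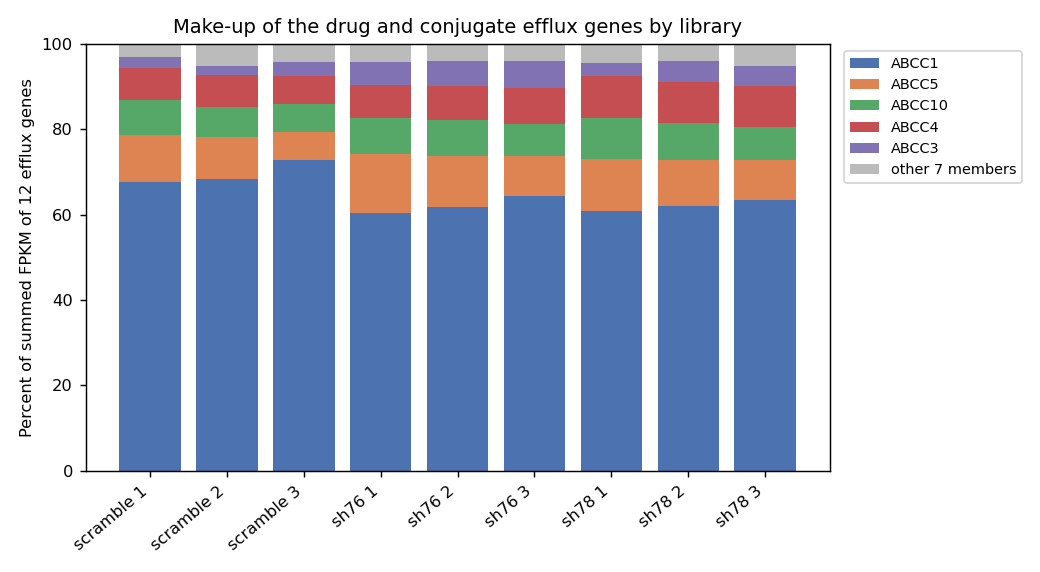
Stacked bars of the percent of summed FPKM that each drug and conjugate efflux gene contributes in each of the 9 libraries. ABCC1 is the largest part everywhere, 67.7% to 72.8% with scramble and 60.4% to 64.3% in the hairpin libraries.

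Among the peroxisomal genes, ABCD3, the abundant membrane protein for branched-chain acyl-CoA and bile acid precursors, had 54.5, 62.8 and 53.7 CPM with scramble, 55, 62.3 and 59.7 with sh76, and 59.4, 69.8 and 62.8 with sh78. Its groups overlapped, and it was not called by edgeR without the block or by DESeq2. The log2 fold change was 0.05 with sh76 (adjusted p 0.833 by edgeR), 0.17 with sh78 (adjusted p 0.359 by edgeR; 0.029 with the block) and 0.12 for sh78 against sh76 (adjusted p 0.581 by edgeR). ABCD2, which carries very long chain fatty acyl-CoA, had 2 counts in scramble replicate 2, 1 in sh76 replicate 3 and 0 in the other 7 libraries. Of 10 peroxisomal beta-oxidation enzymes, 9 were tested and 0 were called in any comparison by edgeR. At an unadjusted p under 0.05 these were 0 with sh76, 1 with sh78 and 1 between the hairpins, and the block called EHHADH, the bifunctional enzyme of that pathway, in the last 2 (log2 fold changes 0.27 and 0.28, adjusted p 0.0321 and 0.0255 by edgeR).

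The lysosomal member ABCD4, which works with LMBRD1 in releasing cobalamin, had 68.7, 70.7 and 68.4 CPM with scramble, 59.3, 63.5 and 60.0 with sh76, and 58.5, 59.1 and 59.4 with sh78. All hairpin libraries were below all scramble libraries. The log2 fold changes were −0.18 and −0.23 (adjusted p 0.151 and 0.0658 by edgeR), called with the block (adjusted p 0.0107 and 0.00158 by edgeR) and, for sh78, by DESeq2 (adjusted p 0.043). ABCB9, a lysosomal peptide transporter, was at 16.0, 16.1 and 13.9, then 16.3, 15.5 and 16.4, then 20.5, 17.3 and 19.1 CPM, with all sh78 libraries above the rest. It was called with sh78 only with the block (log2 fold change 0.31, adjusted p 0.15 by edgeR without the block and 0.0196 with it). Genes on the opposite strand share 24.5% of the exon bases of ABCB9, and since the libraries carry no strand, reads from either strand there cannot be told apart. A gene on the same strand shares 7.12% of the exon bases of ABCD4.

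All 4 mitochondrial members were tested and 0 were called by edgeR without the block or by DESeq2, with 0, 1 and 1 at an unadjusted p under 0.05 for sh76, sh78 and sh78 against sh76. ABCB10, an inner-membrane transporter needed for haem synthesis in red-cell precursors, had 25.4, 18.9 and 17.7 CPM with scramble, 22.5, 19.8 and 18.5 with sh76, and 17.2, 13.5 and 14.6 with sh78. All sh78 libraries were below all others, and replicate 1 was the highest in each group. The log2 fold change with sh78 was −0.45 (95% interval −0.76 to −0.13, adjusted p 0.116 by edgeR). It was called with the block and without the low-count filter (adjusted p 0.000439 and 0.0199 by edgeR). For sh78 against sh76 it was −0.42 (adjusted p 0.149 by edgeR), called in the same 2 fits (adjusted p 0.000688 and 0.0406 by edgeR). ABCB8 and ABCB6 were not called either, and 54.7% of the exon bases of ABCB6 are shared with another gene.

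The soluble members held 3 of the 4 highest levels, and 0 were called by edgeR without the block or by DESeq2, with 0, 0 and 1 at an unadjusted p under 0.05 in the 3 comparisons. ABCE1 had 100, 103 and 110 CPM with scramble, 108, 108 and 116 with sh76, and 93.0, 106 and 98.9 with sh78. Its groups overlapped except that every sh78 library was below every sh76 library. It was called between the hairpins only with the block (log2 fold change −0.16, adjusted p 0.258 by edgeR without the block and 0.0169 with it). ABCF1 had 148, 147 and 161 CPM with scramble, 156, 153 and 171 with sh76, and 143, 162 and 161 with sh78. ABCF3, whose yeast counterpart is the Gcn20 adaptor of the amino acid starvation response, had 76.9, 62.1 and 59.3, then 77.0, 63.2 and 69.7, then 71.2, 68.4 and 62.7 CPM. Both had overlapping groups. ABCF1, ABCF2 and ABCF3 were not called in any comparison, with or without the block. Their log2 fold changes ran from −0.05 to 0.08 over the 3 comparisons, and 45.8% of the exon bases of ABCF2 are shared with another gene.

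The other members had too few counts for the test. The sulfonylurea receptors ABCC8 and ABCC9, subunits of the ATP-sensitive potassium channel, had means of 0.00232 and 0.00337 FPKM. ABCA8, ABCA9, ABCA6, ABCA10 and ABCA5 lie side by side on the minus strand of chromosome 17, and of these ABCA5 was tested while the other four were at 0 to 0.0389 FPKM. ABCG5 and ABCG8, the paired sterol exporters of liver and gut, were at 0.0233 and 0.00814 FPKM. ABCB4, which exports phosphatidylcholine into bile, lies beside ABCB1 on chromosome 7 and had counts of 9, 14 and 10 with scramble, 1, 6 and 3 with sh76, and 5, 1 and 5 with sh78. All hairpin libraries were below all scramble libraries (0.658 ± 0.142, 0.165 ± 0.116 and 0.221 ± 0.135 CPM; SD, n = 3). ABCB4 was singled out after its values were seen, and the low-count filter kept it out of the main test. The edgeR fit without that filter, which tested 43 members, did not call it in any comparison.

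Related genes were followed as lists. TAP1 and TAP2, ABC genes with other symbols that carry peptides into the endoplasmic reticulum for MHC class I, were not called in any comparison, except TAP2 with sh78 and the block (log2 fold change −0.26, adjusted p 0.302 by edgeR without the block and 0.0442 with it), and CFTR, with 0 to 6 counts, was not tested. Of 10 tested partners of members, 1 fell with sh76, 0 were called with sh78, and 1 was higher with sh78 than with sh76, in both cases APOE. The shares of all genes called were 3.58%, 4.41% and 3.7%. At an unadjusted p under 0.05 in edgeR there were 3, 4 and 2 partners, beside 2959, 2983 and 2768 of all 17023 genes. The block called 3, 5 and 2 partners, beside 20.4%, 19.9% and 18.3% of all genes. These included PEX19 with both hairpins, PELO with sh78 and between the hairpins, and GCN1 with sh78. APOE, the apolipoprotein that accepts lipid from ABCA1 and ABCG1, had 119, 136 and 147 CPM with scramble, 72.0, 70.8 and 79.4 with sh76, and 96.5, 101 and 119 with sh78. Its sh76 libraries were the lowest, and sh78 replicate 3 came close to the lowest scramble library. The log2 fold change was −0.85 with sh76 (SE 0.09, adjusted p 0.000274 by edgeR), −0.35 with sh78 (adjusted p 0.0515 by edgeR; 5.21e-07 with the block) and 0.51 for sh78 against sh76 (adjusted p 0.00817 by edgeR). APOA1, the acceptor of ABCA1, had 2.83, 2.88 and 2.12 CPM with scramble and 0.206 to 1.24 in the hairpin libraries, with log2 fold changes of −2.22 and −1.96 (adjusted p 0.0531 and 0.0782 by edgeR), called with the block (adjusted p 1.64e-05 and 6.89e-05 by edgeR).

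Of 13 tested nuclear receptors and factors known to act on ABC genes, 0 were called with either hairpin by edgeR. At an unadjusted p below 0.05 by edgeR there were 2 with sh76, 8 with sh78 and 6 between the hairpins. Of all 17023 genes, 2959, 2983 and 2768 were under that limit. With the block, 2, 8 and 8 of the 13 were called, beside 20.4%, 19.9% and 18.3% of all genes. The counts with sh76 were near the background and the others above it, for reasons that were not tested. Both LXR genes were expressed, NR1H2 (LXR-beta) at 15 FPKM and NR1H3 (LXR-alpha) at 1.93. NR1H2 had log2 fold changes of 0.18 with sh76 and 0.21 with sh78 (adjusted p 0.269 and 0.184 by edgeR). Both were called with the block (adjusted p 0.0274 and 0.0102 by edgeR). NR1H3 had 0.24 and −0.26 (adjusted p 0.439 and 0.419 by edgeR), not called with the block either. Its log2 fold change for sh78 against sh76 was −0.50 (adjusted p 0.0864 by edgeR), called with the block (adjusted p 0.00391 by edgeR). For sh78 against sh76, 2 of the 13 were called without the block, both lower. These were PPARG, a lipid-sensing receptor (log2 fold change −0.97, adjusted p 0.0238 by edgeR), and HIF1A, the hypoxia factor (−0.26, adjusted p 0.0221 by edgeR). PPARG had 3.89, 4.31 and 3.58 CPM with sh76 and 2.05, 1.99 and 1.95 with sh78, beside 4.31, 3.05 and 2.99 with scramble. Of the other LXR targets, MYLIP, SREBF1, LPCAT3 and SCD were tested, and 0 were called in any comparison by edgeR, with 0 at an unadjusted p under 0.05. SREBF1 was called with the block for sh78 against sh76 (log2 fold change 0.14, adjusted p 0.649 by edgeR without the block and 0.0347 with it).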

How the data were processed

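Poly-A RNA sequencing of 9 OVCAR3 libraries (scramble, sh76 and sh78, 3 each) was analysed from a table of counts per gene and one of FPKM, both as the authors deposited them. Per the submitters' processing notes, HISAT2 2.0.5, featureCounts 1.5.0-p3 and hg38 were used. Per the labels' protocols, mRNA was captured with poly-T beads and the libraries were non-directional. The deposited FPKM equalled the deposited counts over gene length and 1 size per library (98.09% to 102.97% of its total count, within 0.1% for 100% of genes). Gene coordinates matched GENCODE 29 (GRCh38) for all 45 members.

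The tests used edgeR 4.0.16 under R 4.3.3 on the counts: filterByExpr (minimum count 10, minimum total 15; 17023 genes left), TMM scaling and robust quasi-likelihood F tests with 1 coefficient per group over all 9 libraries. P-values were adjusted by Benjamini-Hochberg over all 17023 genes, and a gene was called under 0.05. The 95% intervals come from the same fit, and its biological coefficient of variation was 10.4%. The test was tried on simulated counts drawn with no effect of the replicate number, so that trial does not cover the pairing described below. Total counts per library limit the precision of low genes, and floors of 3 counts cover counting error only. Chi-square per degree of freedom between replicates was 4.9 to 11.1, so none was a duplicate.

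Same-numbered libraries deviated together from their group means in all 9 pairs (r 0.192 to 0.455, against −0.361 to 0.0764 in 18 others), so the labels' replicate numbers were read as pairing the samples. The fit with that block has 4 residual degrees of freedom in place of 6 and was an alternative. The other alternatives were DESeq2 1.42.0, RLE scaling, other filters, only the groups compared, limma 3.58.1 on log2(FPKM + 1) and log2(FPKM + 0.1), each library left out, and, chosen after seeing the data, replicates 2 and 3 only.

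Values are given for called members, 16 members listed by name for their roles, and the 5 of highest FPKM; members called only with the block are named with that value. The members and lists were chosen with earlier results of these data known. Promoters come from RefSeq (GRCh38.p14), with entries for 35 members. A few of these genes are not reported here, though the counts over all members include them.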

Additional observations from a re-analysis of the deposited data

Results flagged for a closer look

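The effect of the hairpins on ABCA4 differed between them by a direct test: sh78 was above sh76 by 0.58 on the log2 scale (adjusted p 0.0236 by edgeR; 8.86e-06 with the replicate block), in 3 of 3 same-numbered pairs. The effect of each hairpin against scramble was −0.65 for sh76 and −0.07 for sh78.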

How the results depend on the processing

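No named member changed the sign of a called value in any alternative, and RLE scaling left all 7 calls in place. Of 972 values of single members under the alternatives, 897 kept their side of the threshold, 39 lost a call, 36 gained one and 21 changed sign without being called. With the replicate block, in which the numbers pair the libraries, the members called were 7 with sh76, 12 with sh78, 7 between the hairpins and 5 with both, in place of 3, 3, 1 and 1. Of all genes, the block called 20.4%, 19.9% and 18.3% in the 3 comparisons. It ended no call on a member that the fit without it made. DESeq2 gave 6 with sh78, 2 between the hairpins and 2 with both. No low-count filter gave 5 with sh78, 5 between the hairpins and 2 with both. Fitting only the 2 groups compared gave 0 with both. On log2(FPKM + 1), and likewise on log2(FPKM + 0.1), limma called 1 member with sh76 (ABCG1), 0 with sh78, 0 between the hairpins and 0 with both. Leaving out 1 library at a time gave 1 to 3 members with sh76, 0 to 3 with sh78, 0 to 2 between the hairpins and 0 to 1 with both. Replicates 2 and 3 alone gave 4, 2, 1 and 1; there, as without sh78 replicate 1, the member called with both was ABCC3, higher, in place of ABCG1. Where an arm was left with 2 libraries, the spread was shared over all groups. The cause of these differences was not tested. Depth limited the 16 members that could not be tested, none of which had more than 24 counts in a library.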
